A study of Ananas comosus with 8 samples.

Results

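Aco016649, Aco013228 and Aco026499 are 3 of the 10 genes that the study lists as related to the circadian clock and associated with differentially methylated regions (DMRs) in pineapple leaf. They are given here by locus number alone, and gene names, coordinates and sequences were not used here. The 3 genes were chosen by their FPKM values in the green tip and the white base, and the comparison of the 2 tissues is therefore a description. FPKM divides the fragments of a transcript by its length and by the size of the library, so that levels of different genes can be set side by side. The whole table holds 27024 genes. The circadian clock of plants is a set of transcriptional regulators that repress and activate each other in feedback loops over the day. It times the expression of photosynthesis genes in many plants. In plants with crassulacean acid metabolism (CAM), which take up carbon dioxide at night and release it to Rubisco behind closed stomata by day, the clock also times the nocturnal carboxylation step.

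The RNA-seq samples came from the D leaf of untreated, field-grown pineapple, Ananas comosus var. comosus, of the MD-2 cultivar. The green tip is the photosynthetic end of this leaf, and the white base is its non-photosynthetic end. Of the 8 libraries in the series, 2 are RNA-seq libraries of the green tip and 2 of the white base, and the bisulfite sequencing libraries were not analysed here. The table holds 1 FPKM value per gene and tissue, so that no SD, interval or p-value can be given and the depth behind each value cannot be taken from it. The labels do not give the time of day, on which the level of a clock gene depends, and the methods describe a pair of RNA-seq libraries per tissue for the 10 am collection alone. Both tissues are mixtures of cell types, in which fewer cells of a type and less RNA per cell cannot be told apart.

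The tissue labels were compared with 6 marker genes. Of the genes for photosynthetic carbon fixation, the beta carbonic anhydrases Aco006181 and Aco005402 had 136 and 198 FPKM in the green tip against 0.485 and 9.68 FPKM in the white base. Pyruvate, orthophosphate dikinase (PPDK, Aco024818) had 396 against 5.81 FPKM, and phosphoenolpyruvate carboxylase (PEPC, Aco010025) 633 against 239 FPKM. The DNA methyltransferases CMT3 (Aco013381) and a gene of the MET family (Aco005236), taken as markers of dividing cells, had 12.4 and 4.81 FPKM in the white base against 0.0488 and 2.48 FPKM in the green tip. The gene of the MET family was thus short of a 2-fold difference. FPKM summed over all genes in the green tip to 1.86 times the white base sum, and the 100 highest genes held 50.0% of it in the green tip versus 18.7% in the white base.

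Aco016649 was the clock-related gene with the widest difference between the tissues. It had 341 FPKM in the green tip versus 6.001 FPKM in the white base, a ratio of 56.9. In the green tip it was 293rd of 17110 genes above 0.5 FPKM, within the highest 1.71%. In the white base it was 12549th of 18096 genes, in the lower part of the expressed genes. The log2 ratio was 5.61, with the green tip as numerator and 1 FPKM added to both values to limit the weight of low ones. This was 61st among the 18372 genes with a mean over 0.5 FPKM, or within the highest 0.332%.

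Aco013228 had the highest FPKM of the clock-related genes in both tissues, with 925 FPKM in the green tip versus 153 FPKM in the white base. The difference of 773 FPKM was the largest of the list in absolute terms, although the ratio of 6.06 was far below that of Aco016649. It was 107th of all genes in the green tip versus 583rd in the white base, so that it was a high gene of either tissue. Of all FPKM it took 0.0814% in the green tip versus 0.0250% in the white base. Its log2 ratio of 2.59 was 736th of the genes compared, within the highest 4.01%.

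Aco026499 had 7.53 FPKM in the green tip versus 14.9 FPKM in the white base. It was the lone clock-related gene with a lower value in the green tip as deposited. The white base value was 1.97 times the green tip value, and the log2 ratio on FPKM + 1 was -0.90, short of 2-fold. Counted from the white base side this ratio was 4161st of 18372 genes, so that 22.6% of the genes compared had a ratio at least as low. The 3 genes had been grouped by a strong contrast between the tissues. As deposited, such a contrast was seen for Aco016649 and Aco013228 and not for Aco026499. Whether Aco026499 passed 2-fold depended on the scaling of the columns. After the columns were rescaled to the same sum (TPM rescaling), the log2 ratio of Aco026499 was -1.73, against 1.70 for Aco013228. This rescaling put 42.0% of all genes compared past 2-fold on the white base side. Relative to the median of all genes under it, Aco026499 was at -0.93 and Aco013228 at 2.50.

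**Figure D1:**
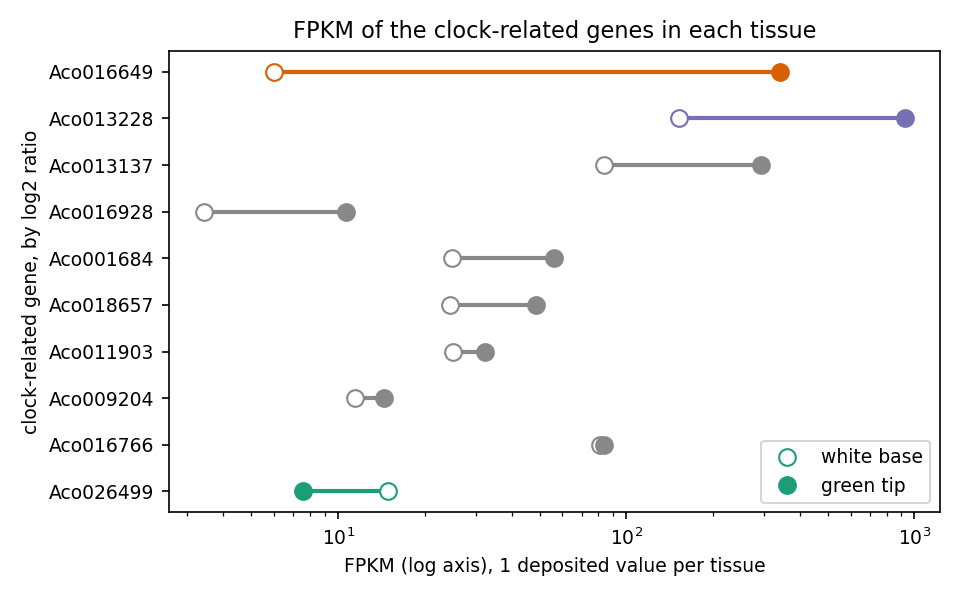
FPKM of the 10 clock-related genes on a log axis, with 1 deposited value per tissue (open circles, white base; filled circles, green tip) and genes ordered by log2 ratio. Aco016649 runs from 6.001 to 341 FPKM and Aco013228 from 153 to 925 FPKM, and Aco026499 is the one gene whose filled circle (7.53 FPKM) lies to the left of its open circle (14.9 FPKM).

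Against 2-fold and 4-fold differences, the 3 genes were read beside all genes compared. Aco016649 and Aco013228 exceeded 4-fold in favour of the green tip, as did 6.59% of all genes compared. After TPM rescaling, Aco013228 was below 4-fold, at a log2 ratio of 1.70. At 2-fold, the green tip had the higher value for 17.2% of all genes and the white base for 20.7%, which makes 38.0% in either direction, and Aco026499 was not among them. Of the 10 clock-related genes, 5 passed 2-fold with the higher value in the green tip, and 0 with the higher value in the white base. Their median log2 ratio stood at 1.05, against -0.01 over all genes compared. The study analysed the expression changes of its listed clock-related genes in the same experiment, so that these counts are no independent evidence of a direction.

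The other 7 clock-related genes lay between the members in log2 ratio, from 0.04 to 1.79. Aco013137, the next gene below Aco013228, had 292 FPKM in the green tip versus 84.0 FPKM in the white base, with a log2 ratio of 1.79. Aco016928 had 10.6 and 3.43 FPKM, and Aco001684 had 55.9 and 24.9 FPKM, both past 2-fold on the green tip side. Aco018657, with 48.5 and 24.5 FPKM, was just short of 2-fold at a log2 ratio of 0.96. The last 3 genes differed little between the tissues as deposited. Aco011903 had 32.4 and 25.0 FPKM, Aco009204 14.5 and 11.4 FPKM, and Aco016766 83.9 and 81.3 FPKM. After TPM rescaling the log2 ratios of Aco011903, Aco009204 and Aco016766 fell below 0, to -0.51, -0.52 and -0.84. Aco016766 was also below 0 after quantile normalization (-0.17) and with an equal sum outside the 100 highest genes (-0.14).

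**Figure D2:**
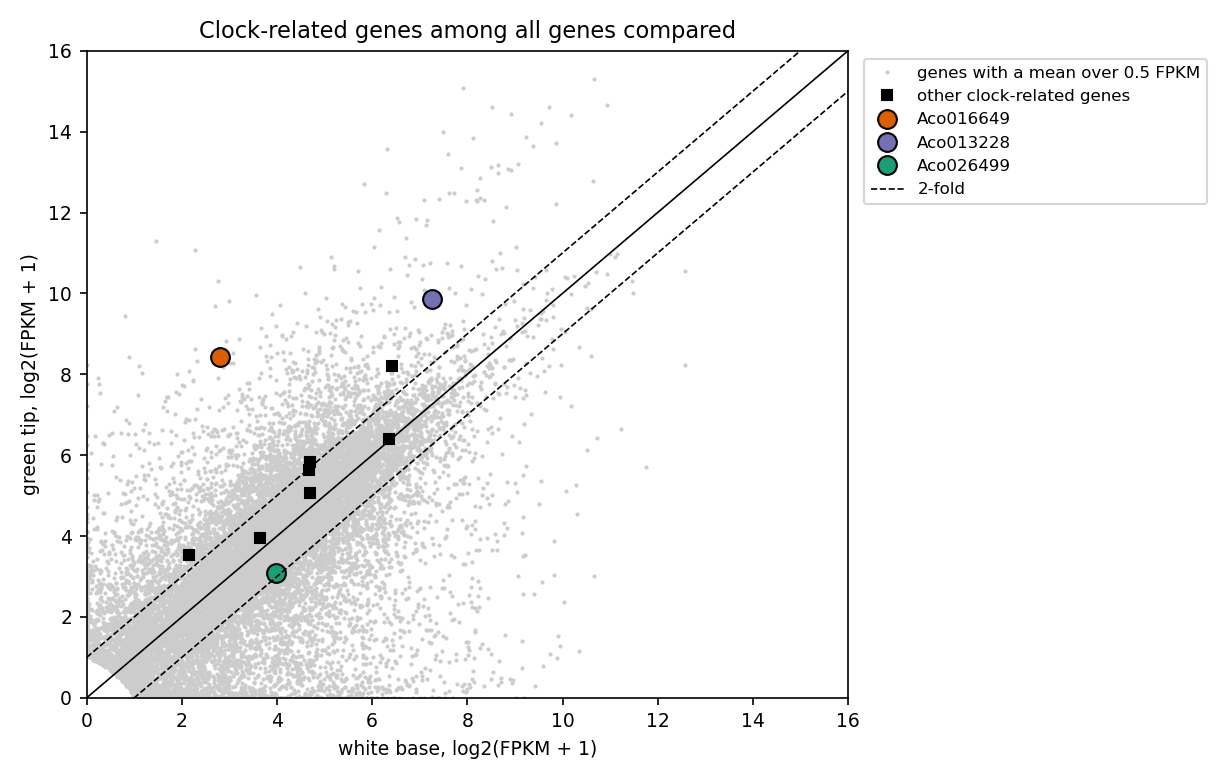
Level in the white base (x axis) and in the green tip (y axis), both as log2(FPKM + 1), of the 18372 genes compared (grey points), with the clock-related genes marked. Dashed lines are 2-fold differences. Aco016649 (log2 ratio 5.61) lies at the upper edge of the cloud, Aco013228 (2.59) above the dashed line among high genes, and Aco026499 (-0.90) just inside the lower dashed line in the dense part.

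Comparison of the genes within a tissue does not depend on how the columns were scaled against each other. In the green tip, Aco013228 held 51.1% of the summed FPKM of the 10 clock-related genes, Aco016649 18.8% and Aco026499 0.416%. In the white base the same genes held 35.7%, 1.40% and 3.47%. Aco013228 and Aco016649 together made up 69.9% of the clock-related FPKM in the green tip versus 37.1% in the white base.

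The order of the genes changed accordingly. Aco013228 was the highest of the 10 genes in both tissues. Aco016649 was the 2nd highest in the green tip versus 9th in the white base. Aco026499 was the lowest of the list in the green tip versus 7th in the white base. The level of Aco013228 was 2.71 times that of Aco016649 in the green tip and 25.4 times in the white base. Aco016649 was 45.3 times as high as Aco026499 in the green tip, whereas in the white base Aco026499 was 2.48 times as high as Aco016649. Set against the median of the other 7 clock-related genes, Aco016649 was 7.04 times as high in the green tip and at 0.241 of the median in the white base. For Aco013228 these values were 19.1 and 6.13, and for Aco026499 0.155 and 0.597.

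**Figure D3:**
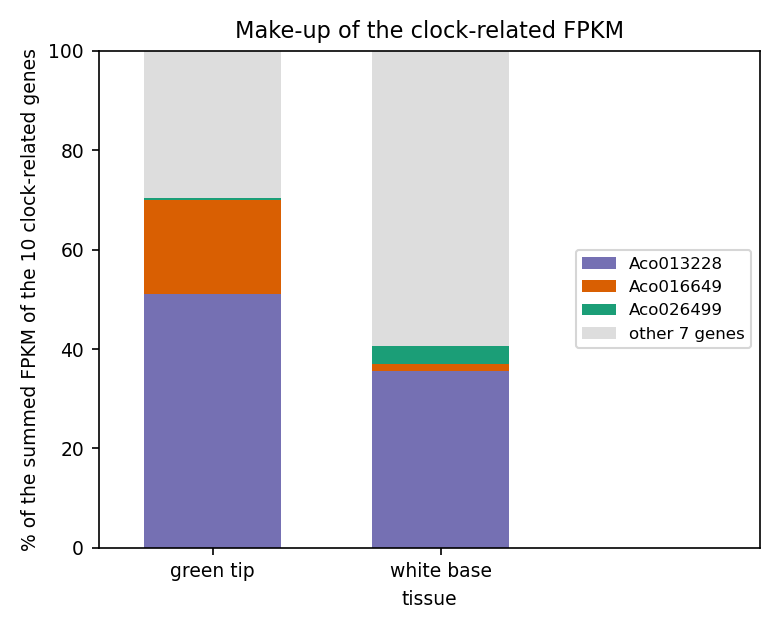
Share of each member and of the other 7 genes in the summed FPKM of the 10 clock-related genes, in % by tissue. The part of Aco016649 falls from 18.8% for the green tip to 1.40% for the white base, while that of Aco026499 is 0.416% and 3.47%.

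The difference between the tissues was then set beside that of genes at a similar level. The members were chosen on these same values, so the counts are a description and no support for a contrast. A total of 5212 other genes had a white base FPKM within 2-fold of Aco016649, and 14 of them had a log2 ratio at least as high. Their median in the green tip was 6.75 FPKM, against 341 FPKM for Aco016649. For Aco013228, 40 of 1221 genes at a similar level in the white base had a log2 ratio at least as high. Among the 163 genes at a similar level in the green tip, 75 did, or 46.0%. The ratio of Aco013228 was thus near the middle of genes of its green tip level, whose median log2 ratio was 2.23. For Aco016649, 23 of 554 genes at a similar green tip level had a ratio at least as high. The median log2 ratio of these 554 genes was 1.60, against -0.01 for the 5212 genes of a similar white base level. Taking genes by a high green tip level itself favours genes that are higher in the green tip. Among 7184 genes with a white base level near that of Aco026499, 19.8% had a ratio at least as low.

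Genes with the most similar pair of values were searched over the 2 tissues by Euclidean distance in log2(FPKM + 1). Of the whole table, the gene nearest to Aco016649 was the PPDK gene Aco024818, with 396 and 5.81 FPKM and a distance of 0.22. PPDK regenerates phosphoenolpyruvate from pyruvate, and this gene had also served as a marker of the green tip. The next genes were Aco006305 with 290 and 6.28 FPKM and Aco010847 with 310 and 7.11 FPKM. Of the genes named in the study's lists, the 2nd nearest was the beta carbonic anhydrase Aco005402, at a distance of 0.99. Within a distance of 0.5 there were 7 genes.

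For Aco013228 there were 6 genes within a distance of 0.5. The nearest were Aco008571 with 1046 and 152 FPKM, Aco014924 with 802 and 155 FPKM and Aco020178 with 1088 and 135 FPKM. Of the named genes, the malate dehydrogenase gene Aco013935 (845 and 251 FPKM) and the PEPC gene Aco010025 (633 and 239 FPKM) were nearest, at 0.72 and 0.85. Malate dehydrogenase reduces oxaloacetate, the product of PEPC, to malate.

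Aco026499 lay among many genes of like values, with 654 within a distance of 0.5. The nearest were Aco000838 (7.63 and 14.8 FPKM), Aco021186 (7.50 and 15.3 FPKM) and Aco031172 (7.48 and 14.4 FPKM). The nearest named genes belong to the DNA methylation pathway. SUVR2 (Aco006945), known in Arabidopsis as a SET-domain protein of RNA-directed DNA methylation (RdDM), had 7.53 and 15.7 FPKM. DRD1 (Aco017413), a chromatin remodeler of the same pathway in Arabidopsis, had 8.92 and 15.5 FPKM. With values from 2 tissues, closeness says only that the levels were alike.

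The genes with adjacent locus numbers, which had no part in the choice of the members, were followed for the 5 nearest listed numbers on each side. Beside Aco016649, 9 of 10 such genes had a mean over 0.5 FPKM. Of these, 2 passed 2-fold on the green tip side and 2 on the white base side, beside the 38.0% in either direction among all genes. Aco016648, the number just below, had 505 FPKM in the green tip versus 16.1 FPKM in the white base; its log2 ratio was 4.88. Aco016647 had 175 and 33.8 FPKM, a log2 ratio of 2.34.

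On the other side, 2 genes passed 2-fold with the higher value in the white base. Aco016650, the Dicer-like gene DCL1, which processes microRNA precursors in Arabidopsis, had 21.6 and 27.5 FPKM and was within 2-fold at a log2 ratio of -0.33. Aco016651 had 4.69 FPKM in the green tip versus 23.2 FPKM in the white base, and Aco016652 had 1.03 and 55.1 FPKM, 53.7 times as high in the white base. The other 5 of the 9 genes, Aco016650 among them, were within 2-fold on FPKM + 1. The median log2 ratio of the 9 genes was -0.05. Across the settings tried, the log2 ratios stayed between 1.46 and 2.37 for Aco016647, 4.02 and 4.97 for Aco016648, -2.93 and -1.91 for Aco016651, and -5.75 and -4.66 for Aco016652. TPM rescaling put 2 more genes past 2-fold on the white base side, Aco016644 at a log2 ratio of -1.32 and Aco016650 at -1.20. It put 42.0% of all genes compared past 2-fold on that side. Aco016645, with 2.99 and 1.45 FPKM, passed 2-fold on the green tip side with a pseudocount of 0.1 or none and after quantile normalization. Whether any of these genes overlap was not analysed here.

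Beside Aco013228, the next number belongs to the MADS-box gene Aco013229, of a family of transcription factors known for roles in flower and organ development. It had 63.0 FPKM in the green tip versus 24.3 FPKM in the white base (log2 ratio 1.34, or 0.47 when rescaled to TPM). Aco013231 had 21.7 FPKM in the white base but was listed at 0 in the green tip. As deposited, 38.0% of all genes compared passed 2-fold in either direction. The other 5 of the 7 genes beside Aco013228 with a mean over 0.5 FPKM were within 2-fold as deposited. Of these, TPM rescaling (-1.82), an equal sum outside the 100 highest genes (-1.12) and quantile normalization (-1.004) took Aco013223 past 2-fold towards the white base. Aco013227, the number just below Aco013228, was listed at 0 in both tissues. Beside Aco026499, 5 of 10 genes were listed at 0 in both tissues. The 3 that passed 0.5 FPKM were within 2-fold, with log2 ratios from -0.40 to 0.42. TPM rescaling put 2 of these, Aco026497 and Aco026501, past 2-fold on the white base side, where it also put 42.0% of all genes compared.

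**Figure D4:**
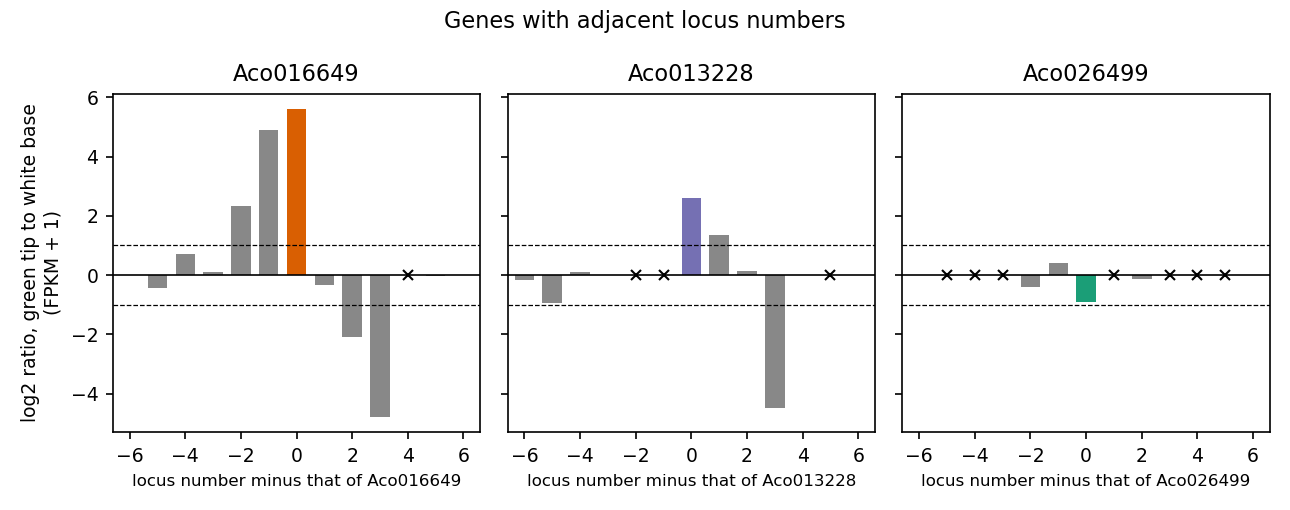
Log2 ratio (FPKM + 1, positive where the green tip is higher) of the genes whose locus numbers adjoin each member (coloured bar at 0), with dashed lines at 2-fold and crosses for genes at or under a mean of 0.5 FPKM. Beside Aco016649 the bars run from 2.34 and 4.88 on one side to -2.09 and -4.79 on the other, and beside Aco026499 all 3 bars are within 2-fold.

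Of the treatments tried, TPM rescaling moved the log2 ratios of the 3 genes the most. It moved the median log2 ratio of all genes compared from -0.01 to -0.80. Genes past 2-fold on the green tip side went from 3169 to 1648, and on the white base side from 3812 to 7725. Under this rescaling Aco016649 had a log2 ratio of 4.80, Aco013228 of 1.70 and Aco026499 of -1.73, so that Aco026499 passed 2-fold on the white base side. Relative to the median of all genes the 3 values were 5.60, 2.50 and -0.93 after TPM rescaling and 5.62, 2.60 and -0.89 as deposited. In all 9 treatments of the values, the deposited one included, Aco016649 was first, Aco013228 second and Aco026499 last of the 10 clock-related genes. This order was largely fixed by construction. The filters leave each ratio as it is. TPM, median-of-ratios and equal-sum scaling each shift all genes alike before the pseudocount is added.

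**Figure D5:**
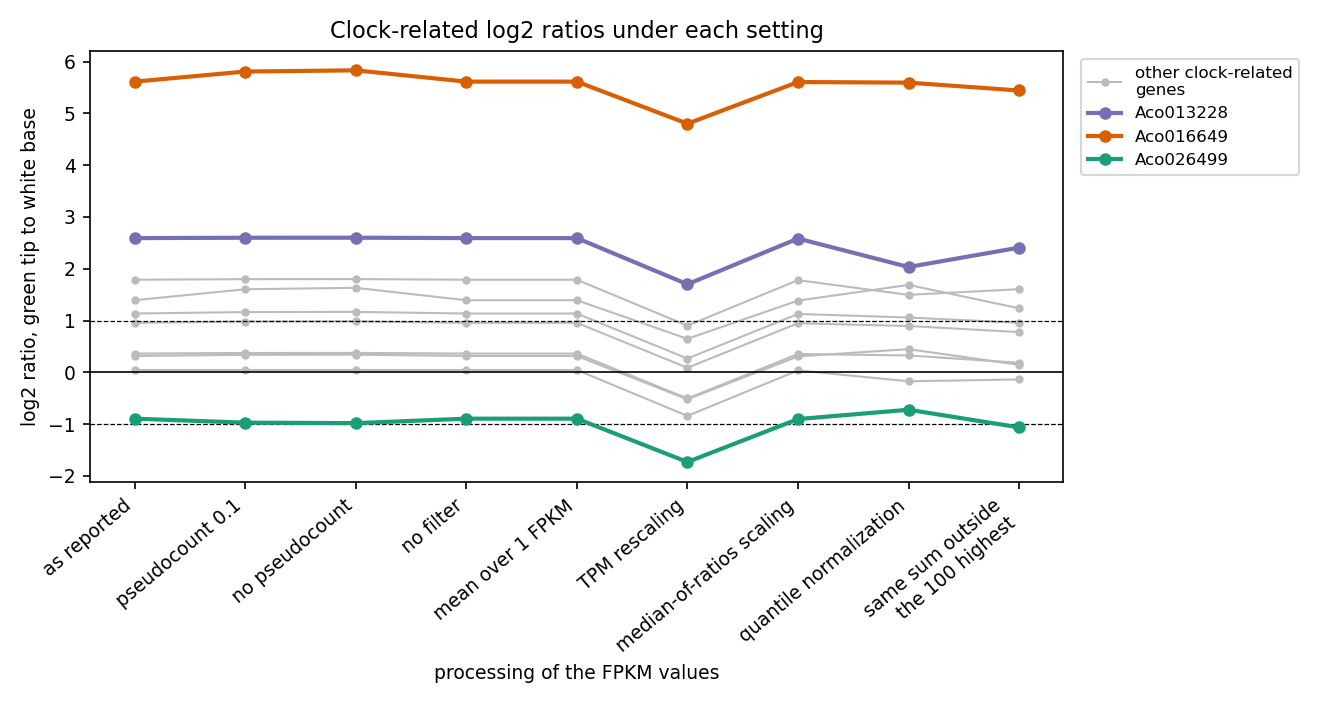
Log2 ratios of the 10 clock-related genes (y axis) under each treatment of the FPKM values (x axis; lines join the values of a gene and mark no order), with dashed lines at 2-fold. Aco016649 stays between 4.80 and 5.83 and Aco013228 between 1.70 and 2.60, and Aco026499 runs from -1.73 with TPM rescaling to -0.72 with quantile normalization.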

How the data were processed

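Per the study's methods, the authors used Trimmomatic for trimming and HISAT2 for alignment of the RNA-seq reads, and FPKM came from StringTie on reads mapped to 1 place. The submitters' processing notes name TopHat2 2.1.0, Cufflinks and Cuffdiff 2.2.1 instead, and which tools made the table is not given in the sources used here. The deposited FPKM table has a column for each tissue and their mean. It is not stated how the libraries behind a column were joined. The study also gives FPKM by time of day for CMT3, the gene of the MET family, DCL1, SUVR2 and DRD1. The deposited values of these genes match none of its times. For DCL1 the direction between the tissues changes with the time there. The authors' DESeq2 step needs read counts and was not repeated.

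Log2 ratios were calculated as log2((green tip FPKM + 1)/(white base FPKM + 1)) and compared over the 18372 genes with a mean over 0.5 FPKM. Ratios understate the change of low genes. With 1 value per tissue no test was run. The members, lists, markers and settings were chosen with earlier results of these data known. Genes named are the members, the clock-related list, the 3 nearest genes of the table and the 2 nearest named genes for each member, the markers, and adjacent locus numbers that differed at least 2-fold or bear a name in the study, the last chosen after their values were seen, as were Aco013223, Aco013227, Aco016644, Aco016645, Aco026497 and Aco026501. Alternatives were a pseudocount of 0.1 or none, no filter, a mean over 1 FPKM, TPM rescaling, median-of-ratios scaling, quantile normalization, an equal sum outside the 100 highest genes of either tissue, and a 4-fold criterion. The code was tested on simulated data. Python 3.11.15, numpy 2.4.6, pandas 2.3.3, scipy 1.17.1 and matplotlib 3.10.9 were used.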

Additional observations from a re-analysis of the deposited data

How the results depend on the processing

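No paired analysis was possible because the table holds 1 value per tissue, and single libraries could not be left out for the same reason. Log2 ratios were read against 2-fold and counts against a change of 1.5 times. Aco016649 and Aco013228 kept their direction and stayed past 2-fold in every alternative run. Both passed 4-fold on the deposited values, but Aco013228 did not with TPM rescaling (1.70). A filter leaves each gene's own ratio as it is. Aco026499 passed 2-fold on the white base side with TPM rescaling (-1.73) and with an equal sum outside the 100 highest genes (-1.06). It was the 1 clock-related gene to pass on that side in either case, against 0 as deposited. Of all genes compared, 42.0% and 23.5% passed on that side in these cases, against 20.7% as deposited. On the green tip side, the clock-related genes past 2-fold numbered 2 with TPM rescaling, against 5, and those past 4-fold numbered 2. The list's median, a log2 ratio of 1.05, was below 2-fold with TPM rescaling (0.18), quantile normalization (0.98) and an equal sum outside the 100 highest genes (0.87). Over all genes, TPM rescaling gave 1648 past 2-fold on the green tip side and 7725 on the white base side, and the 4-fold criterion 1211 and 1835, against 3169 and 3812. TPM rescaling shifts the log2 ratio of every gene by -0.89 before the pseudocount is added, and the equal sum outside the 100 highest genes by -0.18, so these changes follow from their construction. The table gives no read counts and no value per library, so that the counting error and the spread between libraries could not be computed.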
